A study of Mus musculus with 24 samples.

Results

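The control-diet (CD) hippocampus arrays of both offspring generations were compared with each other, which made up 12 of the 24 arrays of the series, 6 of CD F1 mice and 6 of CD F2 mice. The arrays were chosen by the diet and the generation that the labels give. CD F1 mice were the offspring of C57BL/6J fathers kept on a control chow from Envigo and of 129S6/SvEv mothers, and the labels call them congenic hybrids of these strains. CD F2 mice came from matings of F1 males and F1 females that both had control-diet fathers, and the labels call them mixed hybrids. Offspring of both generations were themselves fed the control diet. The labels give an age of 4 weeks for all arrays, whereas the methods describe adult mice studied in balanced sex ratios. Each array held RNA pooled from 4 mice according to the methods, so that a p-value measured only the spread between 6 such samples per generation. Each CD F2 array carried either Xist or the Y-linked Ddx3y, as given below, and a pool of 1 sex and a single animal cannot be told apart here. The labels of CD F2 replicates 1 to 3 carry the code lh and those of replicates 4 to 6 the code rh, and neither is explained. The other 12 arrays came from offspring of fathers or grandfathers on a methyl donor-rich diet (MD) and serve below only as a parallel comparison.

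The hippocampus is built of a few fields whose principal cells are glutamatergic: the granule cells of the dentate gyrus and the pyramidal cells of CA3, CA2 and CA1, with GABAergic interneurons, oligodendrocytes, astrocytes, microglia and vessels between them. The choroid plexus, an epithelium that secretes cerebrospinal fluid and transthyretin, lies in the ventricle next to it and is easily taken along in a dissection. The F1 animals of a cross of inbred strains carry the same pair of parental genomes, while in F2 animals the parental alleles segregate.

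Generation, slide and scan day could not be told apart. The F1 arrays lay on slides 1 to 3 and the F2 arrays on slides 4 to 6, each with 2 CD and 2 MD arrays, 0 of the 6 slides held both generations, and each generation was scanned on 1 day of its own. Every value called a difference between the generations below is therefore equally a difference between slides and between scan days.

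Measures of the arrays themselves differed between the generations as well. The mean log2 signal of the spike-in RNAs, control transcripts that the kit adds to each labelling reaction, was between 11.17 and 11.69 in CD F1 (median 11.35) and between 9.02 and 9.87 in CD F2 (median 9.21) before any scaling. The groups did not overlap, and the mean was lower by 2.08 in CD F2 (two-sided exact permutation test over 924 splits, p = 0.00216, the smallest this design allows, Benjamini-Hochberg adjusted over 13 array measures 0.00469). Taken relative to each array's 75th percentile, the spike-in mean was 0.19 ± 0.23 (SD, n = 6) in CD F1 and -1.42 ± 0.42 in CD F2 (exact permutation p = 0.00216). Median signal was 280.4 ± 26.0 in CD F1 and 212.8 ± 45.1 in CD F2 (exact permutation p = 0.0108, adjusted 0.0156). The number of spots well above background fell from 35736 ± 1073 to 32902 ± 2484 (exact permutation p = 0.00866, adjusted 0.0141). Repeated spots of the same probe varied more on the F2 arrays, with a coefficient of variation of 10.01% ± 1.94 in CD F1 and 13.8% ± 1.15 in CD F2 (exact permutation p = 0.00649, adjusted 0.0121). Local background and the number of irregular spots gave exact permutation p-values of 0.173 and 0.433. How far these measures enter the gene differences below was not tested.

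The tissue label was checked against marker genes. Prox1, the transcription factor of dentate granule cells, Wfs1, a marker of CA1 pyramidal cells, and Zbtb20, a transcription factor of the hippocampal primordium, were well above background on all 12 arrays. Of the striatal markers, Drd1 was well above background on all 12 arrays and Drd2 on 11, and of the thalamic markers Tcf7l2 and Prkcd on all 12. The presence of such signals does not separate carried-over tissue from low expression within the hippocampus. Sex-linked transcripts, given further below, divided the CD F2 arrays into 2 with Xist and 4 with Y-linked signal, whereas every CD F1 array held both; with this measure as a covariate the main comparison below gave 19068 calls in place of 19253.

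The order of the signals was largely shared by both generations. On the array, 25027 of 39429 distinct probes (63.5%) were well above background on all 12 arrays, of which 18749 had a gene name, covering 14294 genes. Across these probes the group means correlated with a Spearman coefficient of 0.953 and a Pearson coefficient of 0.955, a description of 25027 probes read on the same design. The lowest Spearman coefficient between any pair of the 12 arrays was 0.927. Of the 100 probes with the highest mean signal in each generation, 82 were shared, and of the 500 highest, 366. A probe's rank depends on its sequence as well as on its transcript, so that the list of the brightest probes is not a list of the most abundant RNAs. The 20 genes of highest signal held genes with no obvious tie to the hippocampus, among them Gcm1, a placental transcription factor, Pigr, the epithelial immunoglobulin receptor, F10, a clotting factor, and Slc10a1, a bile acid carrier of the liver. Gcm1 held the highest signal of all in CD F1, from 18.84 to 19.01 (median 18.96), and lay between 17.83 and 18.44 (median 18.24) in CD F2, where it ranked 50. Its groups did not overlap, and the difference was -0.75 ± 0.11 (SE, FDR 2.2e-05). All 3 tested probes of Gcm1 were called lower, by 0.37 to 2.78 on the log2 scale.

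**Figure D1:**
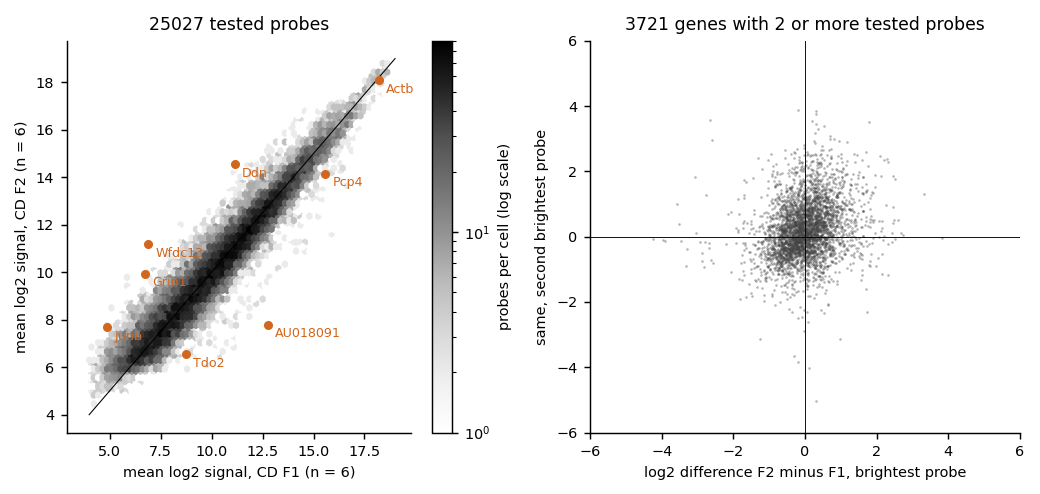
Left, mean log2 signal of each of 25027 probes in CD F1 (x axis) and CD F2 (y axis, n = 6 arrays each), shaded by the number of probes per hexagon on a log scale, with the line of equal signal and 8 genes labelled; most probes lie along the line (Spearman 0.953), and Wfdc13 and AU018091 lie farthest from it among the 8 labelled genes. Right, the log2 difference CD F2 minus CD F1 of the brightest probe (x axis) and the second brightest probe (y axis) of 3721 genes, which correlate with a Pearson coefficient of 0.224.

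Differences between the generations were widespread and mostly small. At an FDR under 0.1 limma called 19253 of the 25027 probes (76.9%), 9833 (39.3%) higher and 9420 (37.6%) lower in CD F2. The groups of 6 did not overlap for 12934 probes (51.7%). The median absolute log2 difference was 0.46 and its 90th percentile 1.30, and 4402 probes (17.6%) were called with a difference of at least 1, 2657 of them higher and 1745 lower. For 7958 probes (31.8%) the 95% interval of the difference lay within 0.5 on either side of 0. Counting the brightest probe of each gene, 5795 of 14294 genes (40.5%) were called higher and 5017 (35.1%) lower, with a median difference of 0.04. A count of called genes in a list has to be read against these shares. The direction of the calls depended on the scaling: without any scaling the median probe lay 0.52 lower in CD F2, and 3492 probes were called higher and 15217 lower. Values and counts of genes and lists given without scaling below are relative to that shift. Counted in that way, 4471 of the 14294 genes were called higher and 4002 lower. With normexp background correction 5640 genes were called higher and 4917 lower. With the 75th percentile as the scale, 8964 probes were called higher and 10337 lower, or 5151 genes higher and 5696 lower.

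The first principal component held 77.9% of the variance and separated the generations, with CD F1 arrays between -77.0 and -55.6 and CD F2 arrays between 43.2 and 80.1. The second held 6.74% and separated F2 arrays from each other: replicates 4 and 6, both from slide 4, lay at -34.2 and -33.1, and replicates 3, 5 and 2 at 33.2, 27.3 and 20.9, while the CD F1 arrays lay between -4.97 and 0.49.

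**Figure D2:**
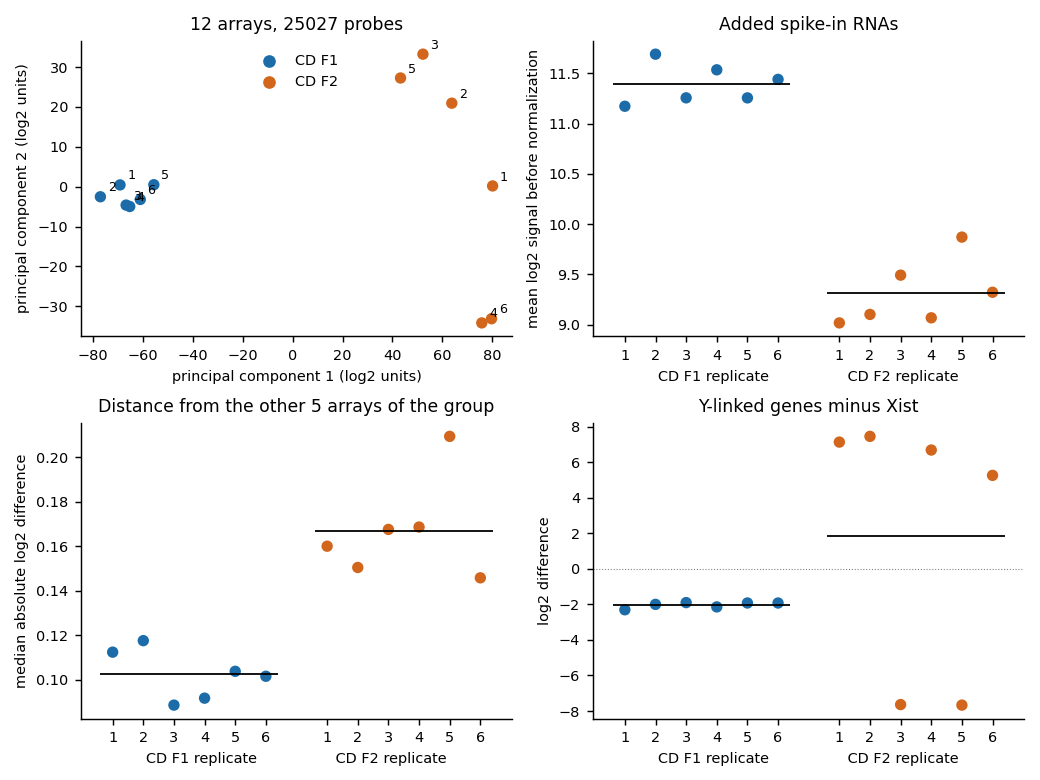
Each point is 1 array of CD F1 (blue) or CD F2 (orange): principal components 1 and 2 over 25027 probes (log2 units, replicate numbers beside the points), mean log2 signal of the spike-in RNAs before scaling, median absolute log2 difference of an array from the mean of the other 5 arrays of its group, and mean log2 signal of Y-linked genes minus that of Xist; the last 3 panels have replicates on the x axis and lines at the group means. The generations separate in the first 3 panels, and in the last the 6 CD F1 arrays lie near -2.03 while the CD F2 arrays split into 4 from 5.27 to 7.46 and 2 at -7.64 and -7.67.

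By the brightest tested probe of each gene, and where the groups did not overlap, Ddn, Grin1 and Eef1a2 were among the 12 genes that rose most. Ddn, which encodes dendrin, a protein of dendrites and of the kidney's podocytes, was between 10.93 and 11.28 in CD F1 (median 11.12) and between 13.98 and 14.96 in CD F2 (median 14.74). No array of the generations overlapped, and the difference of 3.43 ± 0.15 (SE) had an FDR of 2.39e-09. Grin1, the obligatory subunit of NMDA receptors, was between 6.64 and 7.08 in CD F1 (median 6.68) and between 9.15 and 10.42 in CD F2 (median 10.19), a difference of 3.20 ± 0.21 (FDR 2.67e-08). Eef1a2, the translation elongation factor of neurons and muscle, ranged from 11.33 to 11.74 (median 11.56) and from 13.96 to 15.38 (median 15.05), a difference of 3.26 ± 0.22 (FDR 3.09e-08). The F2 arrays with the lowest Ddn and Grin1 signals were replicates 3 and 5. Each of these 3 genes had 1 tested probe.

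The other largest rises of a brightest probe were Wfdc13 (4.29 on the log2 scale), Tpx2 (3.83), Nt5dc2 (3.62), Slc7a11 (3.60), Hoxb3 (3.43), Gna12 (3.37), Srpx2 (3.36), Gfra4 (3.34) and Golt1a (3.18). Slc7a11 is the cystine transporter that feeds glutathione synthesis in astrocytes, and Gfra4 a coreceptor of the GDNF family. All 3 tested probes of Gfra4 rose, by 1.32 to 3.34. Tpx2, a protein of the mitotic spindle, had a second tested probe with a difference of -0.04, which was not called.

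The largest falls of a brightest probe were AU018091 (-4.97), Cts7 (-4.66), Gbp6 (-4.46), Vpreb2 (-4.39), Rhox3c (-4.32), Tbx22 (-4.31), Rabgap1 (-4.23), Defb28 (-4.20), Cd300lf (-4.06), Atg9b (-4.00), Rhox4a (-3.99) and Itga1 (-3.98). Several are known from other tissues: Cts7 is a placental cathepsin, Vpreb2 a surrogate light chain of B-cell precursors, Rhox3c and Rhox4a are reproductive homeobox genes, and Defb28 is a beta-defensin. AU018091 was between 11.88 and 13.45 in CD F1 (median 12.77) and between 7.30 and 8.41 in CD F2 (median 7.67), without overlap (SE 0.26, FDR 4.51e-09). Of these 12, Rabgap1 and Itga1 had a second tested probe, with differences of -0.08 and -0.10 that were not called.

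Different probes of a gene often disagreed, which bears on every gene named from a single probe. Among 3721 genes with at least 2 tested probes, the differences of the brightest and the second brightest probe had the same sign in 59.5% and correlated with a Pearson coefficient of 0.224 across genes. Where both were called (2315 genes), the signs matched in 1470 (63.5%). Of 460 genes whose brightest probe was called with a difference of at least 1, the second probe had the same sign in 68.9% and was called in the same direction in 271. The median range of the differences within a gene was 0.67, and in 1203 genes it was at least 1. Over the same genes, the difference of the brightest probe in CD correlated with that of the identical probe in MD with a Pearson coefficient of 0.945. A probe's difference was thus repeated between diets much more closely than between probes of one gene, and CD and MD arrays of a generation shared their slides and scan day.

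Of 613 genes with at least 3 tested probes, 281 had every probe called, 63 of them higher with all, 54 lower with all and 164 in both directions. The genes named in this paragraph and the next were picked after their values were seen, for having at least 3 probes. Those of this paragraph were taken from the genes with every probe called in the same direction. The agreement of their probes therefore follows from the choice. Gfap, the intermediate filament of astrocytes, rose with all 3 of its probes. The means were 12.17 and 14.49 (difference 2.32 ± 0.12 SE, FDR 5.65e-09), 11.38 and 13.68 (2.29 ± 0.22, FDR 6.15e-07) and 7.29 and 9.79 (2.50 ± 0.16, FDR 2e-08) in CD F1 and CD F2. Cfl1, which encodes the actin-severing protein cofilin, rose by 1.04 to 2.38 with 3 probes, Srgap3 by 0.78 to 2.54 and the postsynaptic scaffold gene Shank1 by 0.73 to 1.51. On the other side, Rps24 fell by 0.62 to 0.79 with 3 probes, Rpl36 by 0.67 to 1.07, Rpl36a by 0.82 to 0.92, Uqcrb, a subunit of respiratory complex III, by 0.66 to 1.05, and Atrx, a chromatin remodeller, by 0.61 to 1.06.

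Even within such genes the sizes differed. Gapdh, the glycolytic enzyme often used as a reference gene, was called higher with all 7 probes, by 0.19 (FDR 0.0519) for the probe of highest signal, with medians of 17.81 and 17.97, and by 2.60 (FDR 3.47e-08) for the probe of lowest signal, from 11.92 to 14.52. With the 75th percentile as the scale, the first of these turned to -0.03. The 4 probes of Rpl7, a protein of the large ribosomal subunit, fell by 0.46 to 1.09. For Ywhaz, a 14-3-3 adaptor protein, 1 probe rose by 1.60 and the other 2 fell by 1.16 and 0.55, all of them called.

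**Figure D3:**
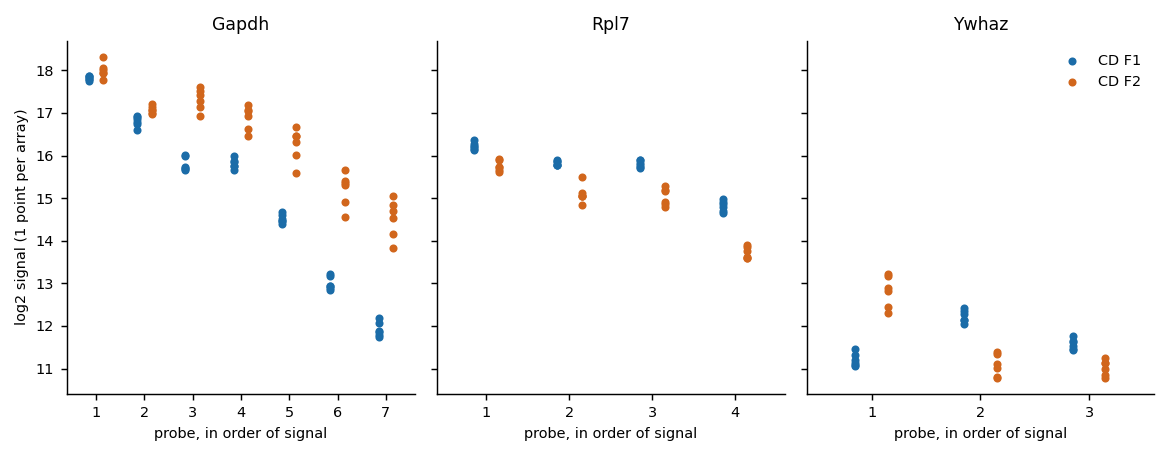
Log2 signal (y axis) of every tested probe of Gapdh (7 probes), Rpl7 (4) and Ywhaz (3), 1 point per array, CD F1 in blue and CD F2 in orange, with probes on the x axis in order of signal. The Gapdh probes lie higher in CD F2 by amounts from 0.19 to 2.60, the Rpl7 probes lie lower by 0.46 to 1.09, and the Ywhaz probes move in both directions.

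Neuronal marker lists held called genes in both directions. Of 25 hippocampal field markers tested, 12 (48%) were called higher and 6 (24%) lower, against 40.5% and 35.1% of all genes. Their median difference was 0.21, against 0.04 over all genes, and it turned to -0.01 with the 75th percentile as the scale. Fibcd1, a marker of dorsal CA1, rose from a median of 9.28 (range 8.99 to 9.63) to 11.55 (10.82 to 11.81), and C1ql2, a synaptic protein of dentate mossy fibres, from 8.39 (8.14 to 8.60) to 10.27 (9.78 to 10.49). Tdo2, a tryptophan-degrading enzyme of mature granule cells, fell from 8.80 (8.05 to 9.47) to 6.60 (6.08 to 7.19), and Pcp4, a calmodulin regulator marking CA2, from 15.57 (15.54 to 15.62) to 14.21 (13.86 to 14.36). Genes of the same field thus went both ways. None of these 4 genes overlapped between the generations, and neither did 11 of the 25 field markers and 7198 of all 14294 genes. The 4 were named by the rule given below, which takes a list's largest differences and its brightest gene.

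Of 24 genes of the glutamatergic synapse, 15 were called higher and 5 lower, with a median difference of 0.58, and of 0.27, 0.32 and 0.47 under the other scalings tried. Among the CD F2 arrays, the list's mean level was lowest on replicates 3 and 5, which carried Xist, at 13.3 on each. It was 13.51 to 13.6 on the other CD F2 arrays and 12.85 to 13.03 on the CD F1 arrays. Next to Grin1, Slc17a7, the vesicular glutamate transporter VGLUT1, rose from a median of 12.02 (range 11.91 to 12.37) to 14.50 (13.06 to 15.03), and Nrgn, the calmodulin-binding protein neurogranin, from 14.81 (14.78 to 15.20) to 16.60 (15.72 to 16.85). Grin2b, another NMDA receptor subunit, rose by 1.60 with 1 probe and fell by 1.03 with the other. Camk2b, the list's brightest gene, rose by 0.38 and by 1.20 with its probes, and the smaller value turned to -0.06 with the 75th percentile as the scale. Among those called lower by their brightest probe were Dlg4 (-1.20), Gria2 (-0.85), Grin2a (-0.52) and Gria1 (-0.45), of which Dlg4, the scaffold PSD-95, had a difference of 0.20 in MD. The second brightest probe differed by 0.82 for Grin2a, the other way, and by -0.12 for Gria2. Ionotropic receptor subunits accordingly lay on both sides.

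Of 20 genes of GABAergic neurons, 9 (45%) were called higher and 5 (25%) lower, against 40.5% and 35.1% of all genes. Their median was 0.22, and by the 75th percentile 7 were called higher and 7 lower with a median of 0.095. Reln, the secreted glycoprotein reelin, rose from a median of 4.86 (range 4.66 to 5.25) to 7.43 (6.76 to 7.52). Lhx6, a transcription factor of interneurons derived from the medial ganglionic eminence, fell with both of its probes, by 1.24 and 1.0, and Cck, which encodes cholecystokinin, by 0.49.

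Glial lists had more members called higher than lower in CD F2, where 40.5% of all genes were called higher and 35.1% lower. Of 23 genes of oligodendrocytes and myelin, 15 were called higher and 2 lower, with a median of 0.46, and of 0.23, 0.28 and 0.44 under the other scalings. Myrf, the transcription factor of myelination, rose from a median of 4.28 (range 4.15 to 4.58) to 6.48 (5.47 to 6.60), Cnp by 1.23, Sox10 by 1.05 and Mog by 0.93. Ermn, a cytoskeletal protein of myelinating cells, fell by 0.95 with 1 probe and rose by 0.33 with the other. Of 18 astrocyte genes, 11 were called higher and 2 lower (median 0.37, and 7 higher and 6 lower with a median of 0.07 by the 75th percentile). Agt, angiotensinogen, rose by 1.50 and Sox9 by 0.70, while the list's brightest gene, Aldoc, differed by -0.02 (FDR 0.859). Of 15 microglial genes, 8 were called higher and 3 lower (median 0.30, and 6 higher and 4 lower with a median of 0.09 by the 75th percentile). C1qa, a subunit of complement C1q, rose from a median of 9.42 (9.12 to 9.52) to 11.57 (11.25 to 11.87) and C1qb by 0.98, whereas Aif1, the calcium-binding protein Iba1, fell from 11.79 (11.70 to 11.92) to 10.44 (10.35 to 10.56). In whole tissue, a change in the number of cells of a type and a change in the RNA per cell cannot be told apart. Of 19 vascular and meningeal genes, 10 were called higher, among them the tight-junction gene Cldn5 by 1.42 and Igf2 by 1.58, and 5 lower, among them the VEGF receptor gene Flt1 by 0.93.

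**Figure D4:**
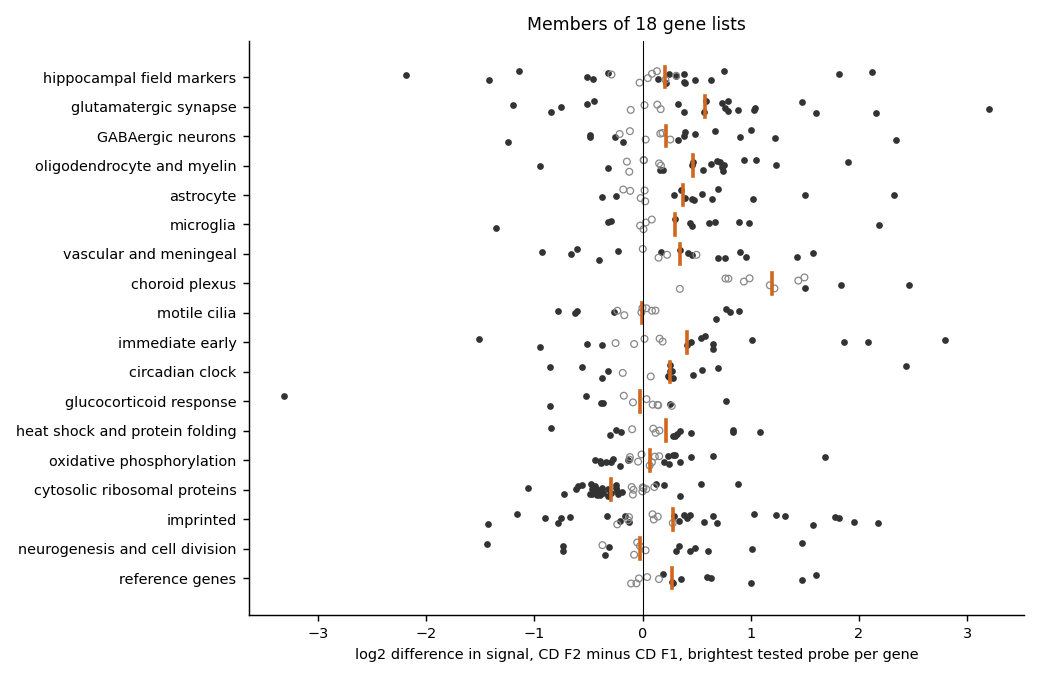
Log2 difference in signal, CD F2 minus CD F1 (x axis), of the brightest tested probe of each member of 18 gene lists; filled points passed an FDR under 0.1, open points did not, and the orange bar is the list's median. The ribosomal proteins have the lowest median (-0.29) and the choroid plexus genes the highest (1.20), and most lists hold called members on both sides of 0.

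The cytosolic ribosomal proteins had the lowest median of the lists: 24 of 37 were called lower and 5 higher, against 35.1% and 40.5% of all genes. The median was -0.29, and with the 75th percentile as the scale it was -0.69. Of the 72 tested probes of these genes, 47 were called lower and 11 higher. Rps18 fell from a median of 14.78 (range 14.66 to 15.05) to 13.83 (13.46 to 13.90), although its other probe differed by -0.07 and was not called, and Rps20 fell by 0.62. Rps2, a small-subunit protein like both of these, rose from 14.82 (14.60 to 14.95) to 15.69 (15.54 to 15.87) and was higher with both of its probes. The 25 subunits of oxidative phosphorylation, by contrast, split into 9 higher and 8 lower (median 0.06), and with the 75th percentile as the scale into 2 higher and 17 lower. Ndufa1, of complex I, fell by 0.44.

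Genes that follow activity, time of day and hormones were mixed. Of 19 immediate early genes, 10 (52.6%) were called higher and 4 (21.1%) lower, against 40.5% and 35.1% of all genes. Junb rose from a median of 4.803 (range 4.65 to 5.33) to 7.80 (7.10 to 8.09), Ier2 by 2.08 and Egr3 by 1.86, while Egr2 fell by 1.52 and Npas4, a neuronal transcription factor induced by calcium entry, by 0.95. Of 16 genes of the circadian clock, 10 were called higher and 4 lower (median 0.25, and 7 higher and 5 lower with a median of 0.09 by the 75th percentile, or 5 and 3 without any scaling). Nr1d1, the repressor REV-ERB-alpha, rose from 8.64 (8.59 to 8.79) to 11.28 (10.35 to 11.66). The clock genes Ciart and Cry1 fell by 0.85 and 0.56, and the list's brightest gene, Tef, rose by 0.24, which turned to -0.22 with the 75th percentile as the scale. Of 14 glucocorticoid response genes, 2 were called higher and 5 lower (median -0.03, and 1 higher and 8 lower with a median of -0.37 by the 75th percentile). Hif3a had the largest fall of the list, from 11.72 (11.22 to 12.31) to 8.44 (8.33 to 8.64), and was lower with both probes, whereas Fkbp5, a classical target of the glucocorticoid receptor, differed by -0.17 and did not pass. Of 16 heat shock and folding genes, 8 (50%) were called higher and 4 (25%) lower, against 40.5% and 35.1% of all genes. Among them Calr rose by 1.09 and Pdia4 fell by 0.84. With the 75th percentile as the scale the counts were 4 higher and 5 lower, and without any scaling 4 and 4.

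Imprinted genes are expressed from 1 parental allele. Of 33 tested, 16 (48.5%) were called higher and 10 (30.3%) lower, against 40.5% and 35.1% of all genes. Their median was 0.28. The median was 0.15 with the 75th percentile as the scale, 0.20 without any scaling and 0.17 with normexp background correction. Blcap rose by 2.17, Plagl1 by 1.96, Peg3 by 1.81, Ndn by 1.77 and Rasgrf1 by 1.32. Peg3 was higher with both of its probes (0.44 and 1.81), and Plagl1 with 3 of 4, the other falling by 0.29. Those that fell included Grb10 (-1.43), an adaptor of the insulin receptor, and Zdbf2 (-0.90). Genes of neurogenesis and cell division split into 7 higher (41.2%) and 5 lower (29.4%) of 17, near the shares of all genes. Top2a and Mcm2, of dividing cells, rose by 1.47 and 1.01, while Mki67, also of dividing cells, fell by 0.73. Among 14 reference genes 9 were called higher and 0 lower, among them Pgk1 by 0.997, whereas Actb, Hprt, Ppia and Gusb did not pass. With the 75th percentile as the scale the counts were 6 higher and 4 lower.

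Markers of neighbouring tissue were mixed too. Of 11 thalamic genes, 6 were called higher and 1 lower (median 0.26, and 0.26 with the 75th percentile as the scale), with Slc17a6, the transporter VGLUT2, rising by 0.68 and Prkcd by 0.51 and 0.93 with its probes. Tcf7l2 rose by 0.88 with its brightest probe and fell with the other 2, by up to 1.37. Of 11 striatal genes, 2 were called higher, among them Ppp1r1b (DARPP-32) by 1.46, and 3 lower, among them Adora2a by 0.82. Of 9 cortical layer markers, 5 were called higher and 3 lower, none by as much as 0.49, and without any scaling 0 of the 9 were called. Among 8 blood genes 1 was called, and the globin genes did not pass: Hba-a1 was between 15.26 and 16.95 in CD F1 (median 16.27) and between 15.52 and 18.49 in CD F2 (median 16.34).

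The study itself followed up Mat2a and Kcnmb2 in F1 mice. It also measured both by qPCR in F2 hippocampus, where it reported no measurable difference by grandpaternal diet. Those were comparisons of diets within a generation. Mat2a, which makes S-adenosylmethionine, was between 14.24 and 14.49 in CD F1 (median 14.33) and between 14.53 and 14.87 in CD F2 (median 14.73), without overlap. The difference was 0.37 ± 0.07 (SE, FDR 0.000466), and its other tested probe rose by 1.16. The first probe was no longer called with the 75th percentile as the scale (0.08, FDR 0.316) or without any scaling (0.13 relative to all probes, FDR 0.516). Kcnmb2, a regulatory subunit of BK potassium channels, ranged from 7.49 to 7.91 (median 7.71) and from 7.29 to 7.88 (median 7.61) and did not pass (difference -0.13 ± 0.10, FDR 0.278). Of genes known to vary between mouse strains, Disc1 rose by 0.84, and Gabra2 and Wdfy1 did not pass.

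A further 262 probes, 137 of them with a gene name, were well above background on all CD F1 arrays and on no CD F2 array. The reverse held for 1 probe, which had no gene name. The lowest signal well above background on an array sets a bound on the fold, which among probes with a gene name was largest for Plaat5, at least 10.2-fold higher in CD F1 (measured means 7.30 and 3.07), followed by Klra16 (at least 8.28-fold), Alpk2 (7.97), Gm4847 (6.97) and Msmb (6.35). For Klra16 another probe was well above background on 5 CD F2 arrays. The F2 arrays had fewer spots above background in all, as given above.

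The CD F2 arrays also varied more among themselves. The median SD over probes was 0.126 in CD F1 and 0.196 in CD F2, the median ratio of the SDs was 1.57, and 76.9% of probes had the larger SD in CD F2. The ratio hardly depended on signal: in 4 equal bins of the probes by mean signal, from the dimmest to the brightest, it was 1.58, 1.54, 1.58 and 1.55. An array's departure, the median absolute log2 difference from the mean of the other 5 arrays of its group, was between 0.0885 and 0.118 in CD F1 (median 0.103) and between 0.146 and 0.209 in CD F2 (median 0.164). The groups did not overlap (two-sided exact permutation p = 0.00216, the smallest possible, adjusted 0.00469). The departures of a group depend on each other, since each is measured against the other 5 arrays. The permutation treats them as independent, so this p-value is only a rough guide. Pairs of CD F2 arrays from the same slide differed by 0.194 on average (3 pairs) and those from different slides by 0.210 (12 pairs), and for CD F1 these values were 0.141 and 0.129. The same-slide pairs of CD F2 were unlike each other: 0.116 for replicates 4 and 6, 0.187 for 2 and 3, and 0.278 for 1 and 5. Replicates 3 and 5 are the CD F2 arrays that carried Xist, as given below. In MD, the median SD ratio of F2 to F1 was 1.01, so that the larger spread in F2 was not repeated with all arrays. It was 1.45 without MD F1 replicate 6, an array left out after the data were seen.

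A test of the spread of single probes, which compared the absolute deviations from the group mean, called 3425 probes (13.7%), 3305 (13.2%) with the larger spread in CD F2 and 120 with the larger spread in CD F1. By the brightest probe, 1933 of 14294 genes (13.5%) had the larger spread in CD F2. The count depended on single arrays and on the deviation used. It was 1996 without CD F1 replicate 4, 2114, 2224 and 2155 without CD F1 replicates 3, 5 and 6, 2071 and 2033 without CD F2 replicates 3 and 5, and 529 with deviations from the median. After a linear adjustment within each generation for the sex measure described below it was 1401, and after one for the level of the choroid plexus genes it was 789. Such an adjustment shrinks the deviations with any measure, which the scaling does not correct, and no unrelated measure was tried. Most of the plexus genes were themselves called for spread. How much of the drop belongs to either measure was not tested. Of 465 genes called for a larger spread in CD F2 by their brightest probe, the second probe was called as well in 33.3%, against 14.4% of all second probes.

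Choroid plexus genes stood out in this spread: 10 of the 12 tested were called for a larger spread in CD F2, against 13.5% of all genes, with a median SD ratio of 2.96. The values fell into separate levels by array. Ttr, transthyretin, was at 18.31, 18.20, 18.13, 10.29, 17.81 and 11.75 in CD F2 replicates 1 to 6, and at 15.9, 14.92, 14.93, 11, 16.14 and 16 in CD F1. Replicates 4 and 6 of CD F2, the arrays of slide 4, were thus low, the other 4 were above every CD F1 array, and CD F1 replicate 4 was also low. Folr1, the folate receptor of the plexus epithelium, was at 13.11, 12.86, 13.07, 8.38, 12.83 and 8.61 in CD F2 and between 7.63 and 9.95 (median 9.13) in CD F1, with the same 2 arrays low in CD F2 and replicate 4 again the lowest in CD F1. Kl, which encodes klotho, ranged from 8.98 to 10.25 in CD F1 and was at 8.73 and 8.76 in replicates 4 and 6 of CD F2 and between 11.54 and 12.28 in the other 4. The mean level of the 12 genes was 8.90 and 8.81 in these 2 arrays, 12.39 to 13.05 in the other 4 and 8.69 to 10.97 in CD F1.

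As a difference between the generations, 3 of the 12 choroid plexus genes were called higher and 0 lower, against 40.5% and 35.1% of all genes. Without any scaling 6 of the 12 were called higher, against 4471 of 14294 genes. With normexp background correction 6 were called higher, against 5640 of all genes. The 3 of the main comparison were Folr1 (2.46 ± 0.87 SE, FDR 0.0203), Ace (1.83 ± 0.34, FDR 0.0003) and Sostdc1 (1.50 ± 0.62, FDR 0.0439). Without the 2 arrays of slide 4 the differences were 3.96, 2.22 and 2.54, and with the rh arrays alone (replicates 4 to 6) Folr1 and Sostdc1 no longer passed, at 0.93 and 0.23. Enpp2, the list's gene of highest signal, differed by 0.79 (FDR 0.184), and by 1.67 (FDR 3.65e-05) without slide 4. In MD the median difference of the list was -0.96. The plexus genes Slc4a5, Kcne2 and Aqp1 were not well above background on 1 or 2 CD F2 arrays and were not tested. Genes of motile cilia, which line the ventricle and also occur in the plexus, had a median difference of 0.00 and a median SD ratio of 2.30, with 7 of 15 called for a larger spread in CD F2. Foxj1, the master regulator of these cilia, rose by 0.89 in CD and differed by -0.15 in MD.

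Sex-linked transcripts divided the CD F2 arrays but not the CD F1 arrays. Xist, the RNA of the inactive X chromosome, was between 10.72 and 10.90 on all 6 CD F1 arrays, and at 1.39, 1.26, 10.12, 1.80, 10.52 and 3.05 in CD F2 replicates 1 to 6. The Y-linked helicase gene Ddx3y was between 9.93 and 10.21 in CD F1 and at 10.97, 10.78, 1.69, 10.92, 1.84 and 10.75 in CD F2. Every CD F1 array therefore held both signals. CD F2 replicates 3 and 5 held Xist, somewhat below the CD F1 range, without Ddx3y, and the other 4 CD F2 arrays held Ddx3y with Xist not well above background. Eif2s3y, Kdm5d and Uty, also on the Y chromosome, were lowest on replicates 3 and 5 as well. Eif2s3y, at 3.56 and 4.20 on these 2 arrays and at 11.21 or more on the other 4, was well above background on 5 of the 6. A measure of the mean of the Y-linked genes minus Xist was between -2.30 and -1.90 in CD F1 and at 7.14, 7.46, -7.64, 6.69, -7.67 and 5.27 in CD F2. Its means did not differ by the test (exact permutation p = 0.234, adjusted 0.276). The labels give no sex, and no CD F2 array held both Xist and Ddx3y well above background although the methods describe pools and balanced sex ratios. All 4 tested genes of the sex-linked list, which are X-linked, were called for a larger spread in CD F2 by their brightest probe. Eif2s3x, a gene with a Y-linked copy, was at 7.54 and 7.60 on replicates 3 and 5 with its brightest probe and between 10.45 and 11.09 on the other 4, while its other probe was between 10.17 and 10.62 on all 6. The first of these probes was thus low on the same 2 arrays as Eif2s3y, and a share of signal from the Y-linked copy was not tested. Leaving out all X and Y genes, the spread test called 3342 probes.

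**Figure D5:**
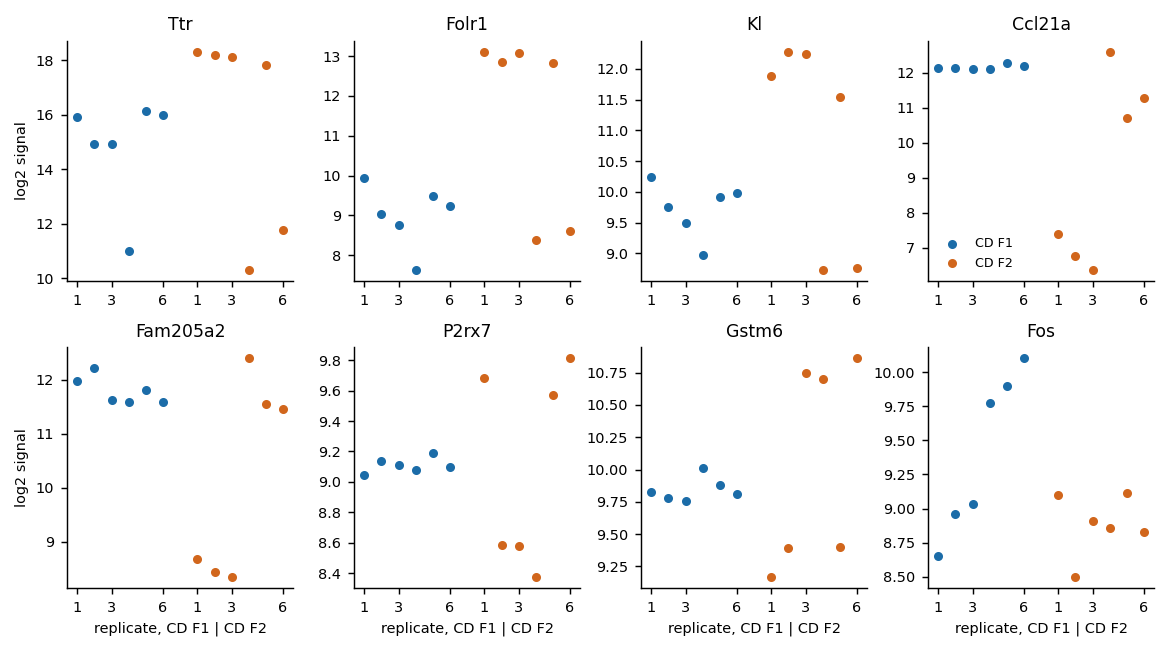
Log2 signal (y axis) of the brightest probe of 8 genes by replicate (x axis), CD F1 in blue and CD F2 in orange, 1 point per array; each panel has its own scale. Ttr, Folr1 and Kl are low in CD F2 replicates 4 and 6, Ccl21a and Fam205a2 are low in replicates 1 to 3, P2rx7 and Gstm6 each split into 3 high and 3 low arrays, and Fos has its larger spread in CD F1.

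Other genes with a larger spread in CD F2 also fell into levels, with several different splits of the arrays. Ccl21a, a chemokine of lymphoid tissue encoded on chromosome 4, was between 12.11 and 12.28 in CD F1 and at 7.41, 6.76, 6.37, 12.60, 10.71 and 11.29 in CD F2 (spread FDR 0.000453). Fam205a2, also on chromosome 4, was between 11.59 and 12.23 in CD F1 and at 8.69, 8.44, 8.34, 12.40, 11.55 and 11.46 in CD F2 (spread FDR 9.72e-05), and 3 of its 4 probes showed the same levels. For both genes the 3 lh arrays lay below all 3 rh arrays. The rh arrays of Fam205a2 lay near the level of CD F1, while those of Ccl21a lay above it in replicate 4 and below it in the other 2. With the rh arrays alone the difference of Fam205a2 from CD F1 was -0.0024 (FDR 0.993), and with the lh arrays alone it was -3.32.

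Gstm6, a glutathione S-transferase on chromosome 3, was between 9.76 and 10.01 in CD F1 and at 9.17, 9.39, 10.75, 10.70, 9.40 and 10.86 in CD F2 (spread FDR 1.28e-05), high in replicates 3, 4 and 6 and low in the others. All 3 of its probes showed this split, 2 of them with a called rise of up to 1.55. P2rx7, the ATP-gated channel of microglia, on chromosome 5, was between 9.05 and 9.19 in CD F1 and at 9.68, 8.59, 8.58, 8.38, 9.57 and 9.81 in CD F2 (spread FDR 4.61e-05), high in replicates 1, 5 and 6. A dimmer probe of P2rx7 had the same 3 arrays on top (spread FDR 0.0149), and the remaining probe did not pass (0.926). The means of P2rx7 differed by -0.01 ± 0.24 (SE, FDR 0.974). Mboat2, Rec8, Tti2 and Wbp11 completed the 8 genes of smallest p, with CD F2 ranges of 10.20 to 12.20, 9.10 to 10.63, 9.01 to 10.29 and 13.43 to 14.66. Of the strain-variable genes, Wdfy1 was called for spread as well (FDR 0.0316), from 10.96 to 11.44 in CD F1 and from 10.12 to 11.94 in CD F2, where replicates 5 and 6 were lowest.

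A larger spread in CD F1 was rare. Fos, the best known immediate early gene, was spread from 8.65 to 10.10 (median 9.40) over the CD F1 arrays and lay between 8.50 and 9.11 (median 8.88) in CD F2 (spread FDR 0.0259), and its mean fell by 0.52 (FDR 0.0562). Slain2, Gabbr2, Tmsb4x, Slbp, Tmem185a, Magee2 and Ddx19a were the other 7 genes of smallest p in this direction, with spread FDRs from 0.00836 to 0.0376. For Slain2, a microtubule protein, the CD F1 arrays covered 7.03 to 7.42 and the CD F2 arrays 7.72 to 7.79, so that the tighter group was also the higher one.

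The MD arrays, whose F1 and F2 samples lay on the same slides as the CD samples of their generation, gave a parallel comparison of the generations. There 17920 of 24099 probes (74.4%) were called, and of 18636 CD calls tested in MD, 18046 (96.8%) had the same sign and 85.8% were called too. Ddn rose by 3.39 in MD, Grin1 by 3.34, Junb by 2.74 and Nr1d1 by 2.25, and AU018091 and Hif3a fell by 5.81 and 3.52. The list medians in MD were 0.73 for the glutamatergic synapse, 0.55 for oligodendrocytes and myelin and -0.27 for ribosomal proteins. They were -0.96 for the choroid plexus and -0.87 for the motile cilia, against 1.20 and 0.00 in CD, and whether these differed between the diets was not tested. Since diet was balanced over slides and generation was not, this comparison repeats the generations, the slides and the scan days together.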

How the data were processed

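Hippocampal RNA was labelled with Cy3 and hybridised to Agilent 4x44K v2 mouse arrays with 1 colour. The deposited files hold per-spot fluorescence intensity as written by Agilent Feature Extraction, version 10.7.3.1 in the headers, whereas the methods state another version. The processed signal, an intensity that the software had background-subtracted and detrended within each array, is linear and was not scaled between arrays by the authors. A deposited table of the authors' processed intensities of the same arrays served as an alternative.

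Of 44397 spots, 43020 were not controls, and 0 of them were saturated. Repeated spots were averaged on the log2 scale, the 12 arrays were quantile-normalized together, and probes well above background on all 12 were kept. Identifiers were matched to RefSeq names for 26055 of 39429 probes, or 19751 symbols, and 436 of the 448 list entries had a probe. No coordinates or probe sequences were used. limma 3.58.1 in R 4.3.3 was fitted with the group means (Benjamini-Hochberg FDR under 0.1, two-sided), and the spread test was the same fit on absolute deviations from the group mean, scaled for the group size. On simulated data the spread test recovered few of the known changes and passed more false calls than its threshold allows, so single spread calls are weak. Single array measures were compared by exact permutation over 924 splits. Precision is limited by having 6 arrays per group.

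Genes were named by rule: the 20 of highest signal, the 12 largest non-overlapping differences of a gene's brightest probe and the 8 smallest spread p-values in each direction, up to 4 members and the brightest of each list, the 5 largest bounds with a gene name, and the sex-linked, strain-variable, reference and study genes in full. Other list members given beside these, the genes with 3 or more probes and the defining markers were added after values were seen. Some genes that the rule names are not reported here. The members, lists and tests were chosen with earlier results of these data known. Alternatives covered scaling, background correction, filters, thresholds, left-out arrays, slides, the lh and rh arrays and covariates.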

Additional observations from a re-analysis of the deposited data

Results flagged for a closer look

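In 5 of 66 groups of array measures and list levels (7.58%), and in 18 of 352 groups of named genes (5.11%), the highest or lowest array lay far from the nearest other array relative to the group's range. Chance gives about 1 in 20. CD F2 replicate 6 had 28000 spots well above background, where the next lowest CD F2 array had 32809. CD F2 replicate 5 departed from the mean of the other arrays of its group by a median absolute log2 difference of 0.209, where the next had 0.169. CD F2 replicate 4 had a mean log2 level of the blood genes of 15.64 against 13.96 on the next array, and a mean level of the striatal genes of 10.65 against 10.43. CD F2 replicate 1 had a mean level of the imprinted genes of 11.61 against 11.45 on the next array.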

How the results depend on the processing

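Between 18462 and 19688 of 25027 probes were called between the generations with other scalings, normexp background correction, array weights, a trended prior, the slide as a random block or slide means, covariates, and either code of F2 arrays alone. Leaving out 1 array gave 18627 to 19495. A difference of at least 1 left 4402 calls, and 1 probe per gene 10843. Spread calls moved more, from 3425 to 5308 with the rh arrays alone, 2160 with 1 probe per gene and 1625 at an FDR under 0.05. They were 529 with deviations from the median, 1401 after the sex measure, 789 after the choroid plexus level and 1996 to 4629 without 1 array. The plexus level was an alternative chosen after seeing the data, like leaving out slide 4 or MD F1 replicate 6 and using the authors' table. The causes were not tested. The SD ratio stayed between 1.32 and 1.71, and the exact p of the departure at or under 0.0411. Some genes changed sign. By the 75th percentile, 2610028H24Rik was at -0.023, Camk2b -0.064, Gapdh -0.026 and Tef -0.22. Without scaling, Camk2b was at -0.0105 and Tef at -0.16 relative to all probes. With normexp 2610028H24Rik was at -0.0099. Tekt1 (-0.23) was at 0.32 with the lh arrays alone and 0.30 without slide 4. Of 4928 gene values under all alternatives, leaving out genes not reported here, 4724 kept direction and side of the threshold. With a replicate block 19041 probes were called, and 2604 for spread, but the numbers do not pair the samples: the correlations of same-numbered deviations ran from -0.16 to 0.136, with 1 of 6 above 0.1. Leaving out saturated spots was not run, since there were 0. Dim probes limit the list of genes detected in 1 generation.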
